A study of Homo sapiens with 10 samples.

Results

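Of 31848 gene clusters measured in 10 poly(A) RNA libraries of HEK293T cells, 89 lay lower in both libraries of the SAM group than in all 8 libraries of the other groups. A gene cluster is a set of transcripts that the deposited tables count together under 1 number. The members were chosen by their level in CPM (the expected count scaled to a library sum of 1000000). The higher of the 2 SAM values had to lie at least 13.04% below the lowest of the 8 other values, the mean over the 10 libraries had to be 5 CPM or more, and the mean transcript length had to run from 700 to under 9000 nt. The level and length conditions alone were met by 10645 clusters. Since the SAM values chose the members, their lower level in SAM is described here without a test.

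The cells, a human embryonic kidney line, were transfected by lipid reagent with a guide RNA whose target is the gamma-globin gene HBG1 of fetal haemoglobin, and with 1 of 4 activators built on dead Cas9, named VP64, VPR, SAM and Suntag. A group labelled guide only received no activator and serves as the control. Each of the 5 groups held 2 libraries. The labels give no culture or clone for a library, so p-values reflect only how far these libraries spread, which could be technical. They name no group with dead Cas9 alone.

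Dead Cas9 binds the DNA that its guide specifies without cutting it, and activation domains attached to it recruit the cell's transcription machinery to that site. VP64 is an array of copies of a herpesvirus activation domain, VPR joins VP64 to the p65 and Rta domains, and Suntag is a peptide array that collects several VP64 domains. In SAM, hairpins in the guide bind a phage coat protein fused to the p65 and HSF1 activation domains, so that these join VP64 at the target. SAM therefore adds a freely expressed fusion of human activation domains to the cell, which is stated as background and not as a cause of the values below.

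The 89 clusters hold 328 transcript identifiers, none of which (0) appears in the gene name tables used here. Of the 82960 identifiers of all clusters only 3 appear there, so this absence says nothing about the members. Their genes, functions, promoters and proteins were not analysed here, and neither were marker genes of the cell line or the level of HBG1. Clusters are described by rank, transcript length and level. Rank 1 has the widest gap between the higher SAM value and the lowest other value.

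Library totals ran from 3316534 to 7447949 expected counts, with 3434486 and 4435296 in SAM. The 2 libraries of a group differed beyond sampling noise, and the mean chi-square of a cluster was 2.27 in SAM, where the other groups had 1.70 to 6.12. The mean fragment length, derived from the deposited lengths, was 116 and 97.5 nt in SAM and spanned 89.8 to 132.9 nt in the other libraries. Its part in the results was not tested.

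The gap was moderate in most members. Relative to the mean of the 8 other libraries, the median over the 89 clusters was -0.57 on the log2 scale in SAM replicate 1 and -0.53 in SAM replicate 2. The same median lay between -0.09 and 0.02 in the 8 others, and over the 10645 clusters that met the level and length conditions it was 0.06 and 0.04 in SAM. No SAM value of a member exceeded -0.29, while single members reached -1.18 in SAM replicate 1 and -1.04 in SAM replicate 2. Together the members held 0.899% and 0.915% of all counts in SAM and between 1.17% and 1.31% in the other libraries. A large part of this came from the most abundant member, ranked 69, with 3746 and 3719 CPM in SAM. Its ratio of means, 1.23-fold, was the smallest of the 89.

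**Figure D1:**
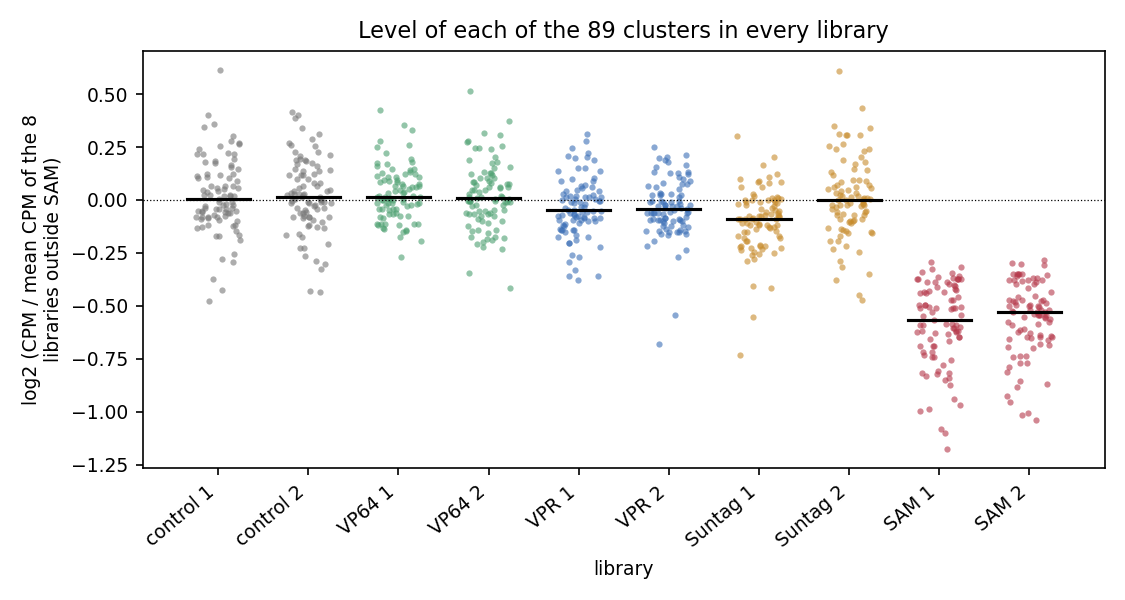
Each point is 1 of the 89 clusters in 1 library, placed by its CPM relative to the mean of the 8 libraries outside SAM on a log2 scale, and black bars are medians. The SAM medians sit at -0.57 and -0.53, and the other 8 medians between -0.09 and 0.02, a separation that the choice of members sets.

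As a ratio of means, the 8 other libraries exceeded SAM by a median of 1.47-fold, with the middle of the distribution from 1.36-fold to 1.59-fold (quartiles) and extremes of 1.23-fold and 2.08-fold. A ratio of at least 1.5-fold was found in 34 members and of at least 2-fold in 1, while 13 members lay under 1.3-fold. Members of every abundance took part. The median ratio was 1.5-fold in the 34 members under 20 CPM, 1.46-fold in the 30 from 20 to under 100 CPM and 1.43-fold in the 25 at 100 CPM or more. The 2 SAM libraries lay close to each other, with a median ratio of 1.06 between them and a largest of 1.60, and replicate 1 was the lower of the pair in 52 members. The rule acts on the higher SAM value, which favours clusters whose 2 SAM values are close. No such ratio is given for clusters outside the members.

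The gap to the nearest other library was narrower than the ratio of means. It was 1.3-fold or more in 13 members, from 1.2-fold to under 1.3-fold in 33 and under 1.2-fold in 43. The nearest library was Suntag replicate 1 in 22 members, VPR replicate 1 in 12, and VPR replicate 2 and Suntag replicate 2 in 11 each. At the threshold, the last 3 members inside lay 13.06%, 13.13% and 13.15% below the lowest other value, for example a cluster of 962 nt with 5.41 CPM in the higher SAM library and 6.22 CPM in the lowest other. The first 3 clusters outside lay 13.00%, 12.99% and 12.90% below it, for example a cluster of 3454 nt with 14.7 CPM against 16.8 CPM. Levels thus run on across the threshold, and with any SAM pair under all 8 other values the rule would take 605 clusters.

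**Figure D2:**
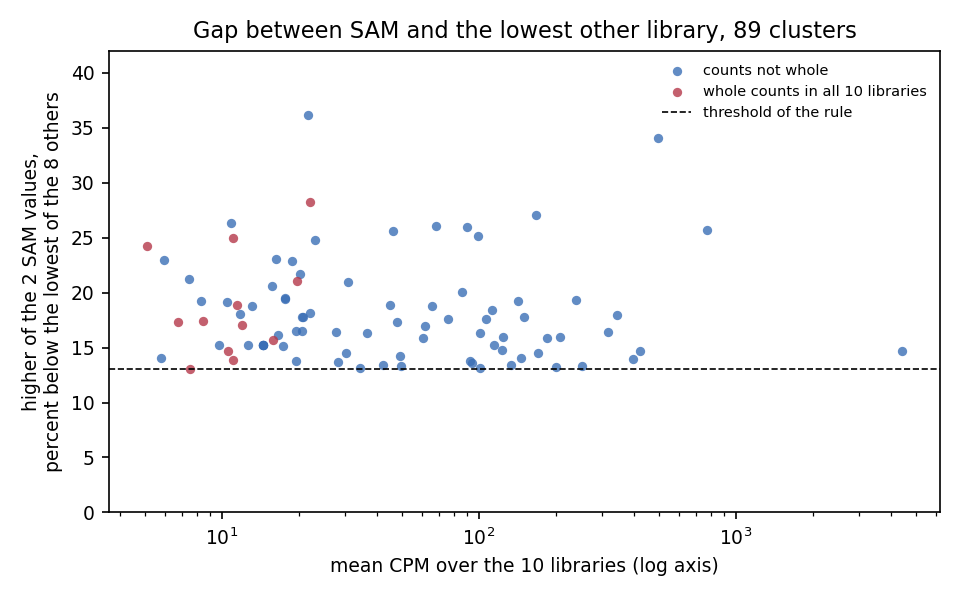
Each point is 1 of the 89 clusters, with its mean CPM on a log axis and the percent by which the higher SAM value lies below the lowest of the 8 others. The dashed line is the threshold of the rule at 13.04%, and the 2 highest points, at 36.1% and 34.1%, have counts that are not whole.

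The first-ranked member, 4467 nt long with 3 transcripts, had 13.0 and 11.9 CPM in SAM. The control had 23.9 and 22.8 CPM, VP64 24.0 and 30.8, VPR 22.3 and 21.8, and Suntag 20.3 and 24.4. The highest SAM value thus stood 1.56-fold below the lowest other value. From summed counts, 97 in SAM and 1009 in the others, the rate in SAM was 0.528 of that elsewhere, with an exact 95% interval of 0.424 to 0.651 that covers counting error only. This interval and those below leave out the spread between libraries. Since the SAM values chose the members, none of them tests the difference. The counts of the first-ranked member were not whole numbers, which is what reads divided between clusters give.

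The second-ranked member, of 1970 nt and 5 transcripts, was far more abundant and its SAM libraries nearly coincided. It held 335 and 332 CPM in SAM, while VP64 had 515 and 562, VPR 508 and 525, Suntag 512 and 529, and the control 596 and 564. SAM stood at 0.621 of the others (exact 95% interval 0.596 to 0.647, from 2623 and 23189 counts). As group means this was 333 ± 1.96 CPM for SAM beside 580.1 ± 22.9 CPM for the control (SD over 2 libraries).

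Cluster 22851, ranked 3, is the first-ranked member with whole counts in all 10 libraries, so no division of reads was visible in it. It has 6 transcripts and 4432 nt. Its levels were 15.1 and 13.1 CPM in SAM, while VP64 had 26.4 and 24.1, VPR 22.2 and 26.2, Suntag 21.1 and 24.9, and the control 21.9 and 24.4. The 8 other values span 21.1 to 26.4 CPM with the groups overlapping each other, and both SAM values lie apart. SAM was at 0.582 of the others (exact 95% interval 0.474 to 0.709, from 110 and 1038 counts).

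Cluster 16752, ranked 11, is the next member with whole counts, and its 3 transcripts average 3916 nt. It had 7.86 and 8.12 CPM in SAM. The control had 12.02 and 13.8, VP64 13.1 and 11.5, VPR 10.9 and 10.9, and Suntag 10.8 and 11.7. The ratio of SAM to the others was 0.677, and its exact 95% interval of 0.513 to 0.881, from 63 and 511 counts, is wide at this depth.

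**Figure D3:**
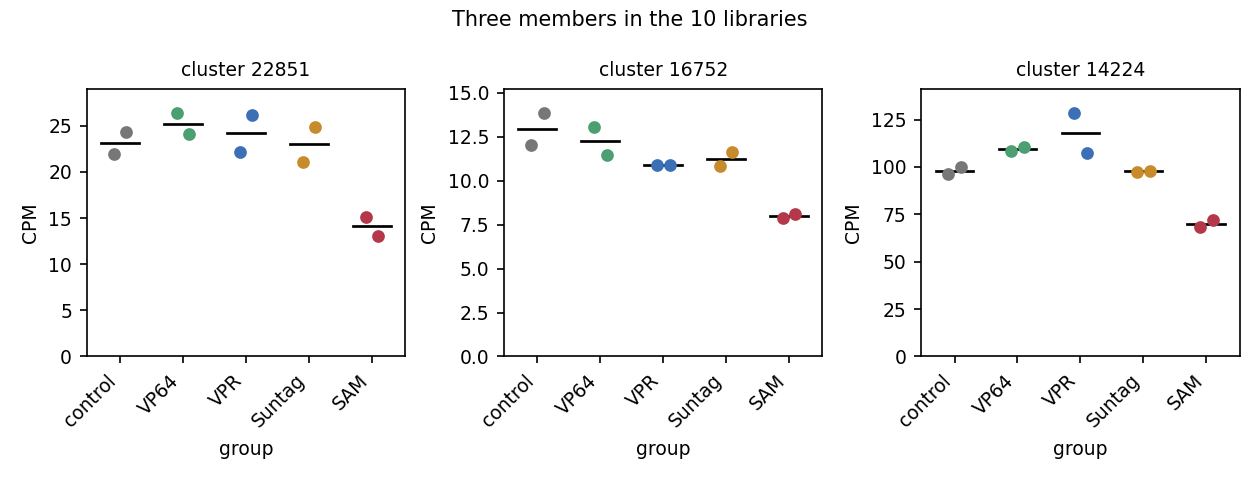
Points are the 2 libraries of each group, bars their means, in CPM on axes that start at 0, for clusters 22851, 16752 and 14224. In each panel both SAM values lie under all 8 others, and in cluster 14224 the VPR mean of 118 CPM is the highest of the group means.

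The other members ranked 4 to 10 gave the same picture at different levels. The member ranked 4, of 3249 nt, had a mean of 114 ± 3.36 CPM for SAM and of 185 ± 2.78 CPM for the control, with VPR between them at 161 ± 2.43 CPM (SD over 2 libraries). The member ranked 5, a single transcript of 2828 nt, averaged 6.61 ± 0.726 CPM for SAM, where the control averaged 11.3 ± 1.05 CPM. In the member ranked 7, of 2124 nt, the values were 64.1 ± 1.77 and 97.1 ± 5.32 CPM. In each of these 3 members the 2 SAM values differed from each other far less than from the control, which the choice of members favours.

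The member ranked 9, of 2958 nt, separated into steps. Its means were 29.1 ± 0.320 CPM for SAM, 42.6 ± 4.50 for VPR, 47.3 ± 4.29 for VP64, 54.7 ± 1.68 for Suntag and 57.7 ± 3.75 for the control (SD over 2 libraries). VPR and VP64 overlapped, as did Suntag and the control.

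The most abundant members had small counting errors. The highest, of 1985 nt and ranked 69, held 3746 and 3719 CPM in SAM and from 4393 CPM in Suntag replicate 1 to 5286 CPM in Suntag replicate 2 elsewhere. Its ratio to the others was 0.812 (exact 95% interval 0.802 to 0.822). The second, a single transcript of 2136 nt ranked 8, had 534 and 582 CPM in SAM, while VP64 had 829.5 and 851, VPR 836 and 789.9, Suntag 814 and 866, and the control 783 and 815. SAM stood at 0.684 of the others (exact 95% interval 0.663 to 0.706). VPR and Suntag each overlapped all other groups outside SAM in this member, while both VP64 values lay above both control values.

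Transcript number, length, abundance and spread were set beside those of the 10645 clusters in the same level and length range, as descriptions. The rule set limits on length and abundance and used the lowest of the 8 other values, so only the number of transcripts did not enter it directly. Whether that number goes along with length, abundance or spread was not tested. Members more often consisted of a single transcript, 26 of 89 or 29.2% against 16.8%, and the median number of transcripts was 2 against 3. The median length was 2675 nt against 2962 nt, with members from 911 to 7025 nt. Abundance was more spread, with 28.1% of members at 100 CPM or more against 18%, and 38.2% under 20 CPM against 30.6%. Per length, in the deposited TPM, the median level was 28.3 against 24.9. The standard deviation of log2 CPM over the 8 other libraries had a median of 0.136 in members and 0.170 in the comparison set, and a rule on the lowest of 8 values favours clusters of small spread.

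A shift between transcripts of a cluster would show in the deposited length, which is weighted by the abundance of each transcript in a library. That length varied between libraries in 58 members. By limma over 10017 clusters, SAM against the mean of the other 4 groups, 0 of the 58 passed an adjusted p of 0.05 (smallest 0.225), and 11 of all clusters did. At an unadjusted p under 0.05 there were 3 members, 5.17% of them, against 6.84% of all clusters. The difference exceeded 0.1 on the log2 scale in 4 members. This test was added after the data were seen, and no other tool or setting was run for it.

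A set of 4 members of 1138 to 1139 nt, ranked 60 to 63 with 2 transcripts each, were not separate measurements. Their counts were equal within 0.65% in every library, as reads divided evenly between near-identical copies give. Summed, they held 46.8 and 47.5 CPM in SAM and from 56.0 CPM in VP64 replicate 1 to 75.1 CPM in Suntag replicate 2 elsewhere. Counted once, the 89 members are 86, and since none of the 4 was called in any comparison below, no count of calls changes.

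Read division touched most members to some degree. Counts were whole within 0.01 in all 10 libraries for 12 members, 13.5% against 16% of the comparison set, and these 12 had mean levels from 5.10 to 21.9 CPM. In 29 members the counts lay over 0.05 from a whole number in 5 or more libraries, and for 0 of these did any 1 further cluster complete the counts to whole sums within 0.02. Clusters numbered next to a member were looked at as well, for the 77 members with counts that were not whole. Of 154 such pairs, 6 had sums within 0.02 of whole in all libraries. Whether reads were shared in these 6 was not tested. In the 5 members where the neighbour held most of the summed counts, from 91.2% to 97.2%, the sums were not whole and did not meet the rule, so they say little about the member. For those members, ranked 16, 33, 37, 50 and 80, reads shared with other clusters were not resolved.

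The edgeR differences between SAM and each other group use the values that chose the members, and they are set side by side as a description. The median log2 difference of the 89 was -0.61 against the control, -0.68 against VP64, -0.60 against VPR and -0.58 against Suntag, where the median over the comparison set was -0.01, -0.01, -0.01 and -0.02. The comparisons share the SAM libraries. Lower calls at an adjusted p of 0.05 (edgeR's quasi-likelihood test) numbered 60 of 89 against the control, where 2.94% of all 13241 tested clusters were called lower, and 60 against VP64, where 2.77% were. There were 63 against VPR, with 3.56% of all, and 36 against Suntag, with 1% of all. Nothing is read from these shares, since the rule fixed the direction.

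All 4 comparisons called the same member lower in 33 of 89 (0.317% of all tested clusters), 3 in 16, 2 in 15, 1 in 9, and none in 16. These calls were sensitive to leaving out 1 library, which leaves 1 in its group. They fell in number without either SAM library in all 4 comparisons. They also fell without either library of the compared control, VP64 or VPR group, and without Suntag replicate 2 against Suntag. Against Suntag they fell as well without either VP64 library, and rose without Suntag replicate 1. The share of all tested clusters called in either direction moved the same way in each of these fits. The loss of calls is thus not particular to the members. The median log2 level over the same 89 members ran from -0.57 to -0.53 with each of the 10 libraries left out in turn. All 10 libraries had chosen these members, so that median had little room to move.

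The comparisons among the other 4 groups are not the one that chose the members, but they use the same 8 libraries whose lowest value entered the rule. The rule thus left out clusters that fell toward the SAM level in another group and favoured a small spread, so the number of calls here is partly set by the choice of members. VP64 called 0 members against the control, where 0.816% of all tested clusters were called, with 6 members at an unadjusted p under 0.05 (6.74%, against 14.4% of all) and 0 called by DESeq2. VPR called 3, 1 higher and 2 lower, or 3.37% of members, where 6.6% of all clusters were called, 4.58% higher and 2.02% lower. Suntag called 3, all lower, or 3.37% of members, where 1.33% of all clusters were called and 0.34% were called lower. Over the members the log2 difference from the control had a median of 0.07 for VP64, 0.02 for VPR and -0.02 for Suntag, with a median SE of a single member of 0.13 in each. These 3 comparisons share the control libraries.

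Between activators, Suntag against VP64 called 2 members, both lower in Suntag, or 2.25% of members, where 0.234% of all clusters were called and 0.113% were called lower. VPR against VP64 called 0 of the 89, where 0.00755% of all clusters were called by edgeR, with 6 members at an unadjusted p under 0.05 (6.74%, against 8.64% of all) and 0 called by DESeq2. VPR against Suntag called 0, where 0% of all clusters were called by edgeR, with 13 members at an unadjusted p under 0.05 (14.6%, against 13.3% of all). DESeq2 called 3 members there, or 3.37%, against 0.182% of all clusters. In all, 6 members were called in at least 1 of these 6 comparisons. The matching share of all tested clusters is not given here, and VPR against the control alone called 6.6% of them. Nothing about the members is read from this number.

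**Figure D4:**
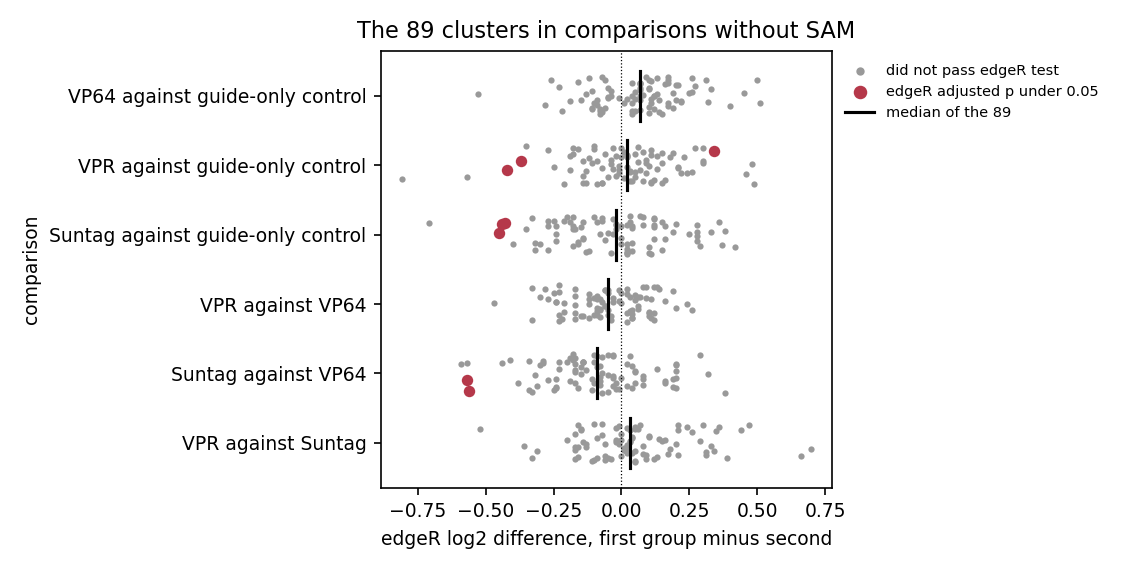
Each point is 1 of the 89 clusters, placed by its edgeR log2 difference between the 2 groups named on the left, with the vertical position within a row set at random. Red points passed an adjusted p of 0.05 and black bars are medians, which lie between -0.09 and 0.07 in all 6 rows.

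Cluster 14224, ranked 10, was the only member called higher in an activator group than in the control by edgeR, in a call that most alternatives did not keep. Of 1573 nt and 4 transcripts, with counts that are not whole, it held 128 and 108 CPM in VPR, 96.4 and 99.8 in the control, 108 and 110 in VP64, 97.5 and 98.02 in Suntag, and 68.1 and 72.1 in SAM. VPR exceeded the control in 2 of 2 libraries, by 0.34 ± 0.10 on the log2 scale (SE, edgeR adjusted p = 0.0487). VPR replicate 2 lay below both VP64 values. The call ended in 10 of 16 alternatives, with adjusted p from 0.0163 to 0.422, among them DESeq2 (0.0879), the length trend removed (0.422), the replicate block (0.0632), and the fits without either VP64, SAM or control library or without VPR replicate 1 (0.0702 to 0.357).

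The member ranked 70, of 6366 nt and 3 transcripts, fell in VPR as well as being low in SAM. It held 373 and 373 CPM in VPR and 312 and 318 in SAM, while VP64 had 477 and 468, Suntag 399.9 and 455, and the control 540.4 and 513. No value of VPR reached a value of another group outside SAM. Its log2 change in VPR against the control was -0.42 ± 0.08 (SE, edgeR adjusted p = 0.00504), lower in 2 of 2 libraries. The call ended with the length trend removed (adjusted p = 0.157) and without control replicate 1 (0.0569) or VPR replicate 1 (0.0562), and it held in 13 of 16 alternatives.

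The member ranked 6, of 6884 nt and 2 transcripts, was highest in the control. It had 83.7 and 97.3 CPM there, while VP64 had 72.6 and 69.9, VPR 68.9 and 64.4, Suntag 61.9 and 70.1, and SAM 45.7 and 45.8. Both control values exceeded all 8 activator values. It fell against the control in VPR, where the log2 difference was -0.37 ± 0.10, and in Suntag, where it was -0.43 ± 0.10 (SE, edgeR adjusted p = 0.0338 and 0.0465). Neither call is firm. No DESeq2 value was available for the Suntag call, which had 15 alternatives. The VPR call ended with DESeq2 (0.108), with the length trend removed (0.425) and without any 1 of the VP64, VPR, SAM or control libraries (0.0514 to 0.287). The Suntag call ended with the compared groups alone (0.180), the length trend removed (0.214) and the replicate block (0.068), and without any 1 of the 10 libraries (0.0515 to 0.326).

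The member ranked 67, a single transcript of 2330 nt, was also highest in the control, at 148 and 162 CPM. Suntag held 107 and 117, VP64 129.5 and 118, VPR 131 and 134, and SAM 88.4 and 91.2 CPM. The fall in Suntag against the control was -0.44 ± 0.08 on the log2 scale (SE, edgeR adjusted p = 0.0234), lower in 2 of 2 libraries. It ended with the compared groups alone (0.118) and without control replicate 1 (0.0677) or 2 (0.205), and held in 13 of 16 alternatives.

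In a pair of abundant members, each a single transcript, Suntag lay between SAM and the other groups. The member ranked 76, of 1752 nt, held 223 and 255 CPM in SAM, 296 and 349 in Suntag, 426 and 516 in VP64, 498 and 492 in VPR, and 471 and 430.0 in the control. Suntag did not overlap any other group in this member. Its log2 difference in Suntag was -0.57 ± 0.10 from VP64 and -0.45 ± 0.10 from the control (SE, edgeR adjusted p = 0.0286 and 0.0465). The call against VP64 ended without VP64 replicate 1 (0.143) or 2 (0.274) or Suntag replicate 2 (0.0517). That against the control ended in 11 of 16 alternatives, which were the compared groups alone (0.132), the replicate block (0.0535) and every fit without 1 library other than Suntag replicate 2 (0.0565 to 0.252).

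The member ranked 36, of 3323 nt, held 211 and 225.5 CPM in SAM and 328 and 275 in Suntag. VP64 had 429 and 444, VPR 371 and 396, and the control 400.1 and 361 CPM. Both Suntag values again lay between those of SAM and of all other groups. From the control, the log2 difference of Suntag was -0.30 ± 0.10 and was not called (SE, edgeR adjusted p = 0.142). Suntag was below VP64 by a log2 difference of -0.56 ± 0.10 (SE, edgeR adjusted p = 0.0254), in 2 of 2 libraries. That call ended without VP64 replicate 1 (0.302) or 2 (0.230) or Suntag replicate 2 (0.089).

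In the deposited TPM, which is scaled per transcript length, the median log2 level of members in SAM was -0.51, where it was -0.55 in CPM. Both SAM values lay under all 8 others in 85 of the 89 members, a count that their choice in CPM largely sets. The whole rule was met by 53 clusters in TPM, 44 of them members. In CPM, 43 members had a gap under 1.2-fold and so lay near the threshold. The part of transcript length in the fall to 44 was not tested. Scaling by TMM factors, which were 1.05 and 1.03 in SAM and from 0.962 to 1.03 elsewhere, went the other way, and 182 clusters met the rule, the 89 among them. Applied with the same conditions to each other group in turn, the rule took 33 clusters as lower in VP64 than in the 8 other libraries, 30 in VPR, 11 in Suntag and 71 in the control. In the opposite direction, by the same factor, 233 clusters were higher in SAM than in all 8 other libraries. The 89 for SAM thus stand beside 71 for the control, and whether these numbers differ beyond the spread between libraries was not tested.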

How the data were processed

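Poly(A) RNA was measured in 10 libraries, grouped by sample title. Per the submitters' processing notes, RSEM 1.2.1 and hg19 were used, with the annotation not given in the sources used here, and with 1 table per library. Per the file headers, the authors deposited for each of 31848 clusters an expected count (an estimated count that need not be whole), TPM and transcript lengths in nt. The FPKM column was not used. Per the labels' protocols, libraries were made by tagmentation of randomly primed cDNA, which does not mark strand, so overlapping and antisense genes cannot be told apart.

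Expected counts were rounded and tested with edgeR 4.0.16 in R 4.3.3 (filterByExpr, 13241 clusters, TMM, quasi-likelihood F test, 1 coefficient per group, 5 residual degrees of freedom), with Benjamini-Hochberg adjustment over all tested clusters. The SE is the log2 difference divided by the square root of F. Both scripts' tests were checked on simulated data. Weighted lengths were tested with limma 3.58.1. Alternatives were RLE factors, DESeq2 1.42.0, no filter, the compared groups alone, the replicate block, a loess length trend removed, and each library left out. With 1 library left in a group, it is assumed to vary like the others. Members and tests were chosen with earlier results of these data known. Clusters identified by number are the first 2 ranked members with whole counts and the members called higher among the other groups. The rest are described by rank: ranks 1 to 10, the 5 most abundant, those nearest the threshold, those called, and those with the largest neighbours. A 2 against 2 permutation test was not used. Replicate numbers did not pair the libraries: correlations of replicate differences between groups ran from -0.0672 to 0.0620.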

Additional observations from a re-analysis of the deposited data

Results flagged for a closer look

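A test of the difference between activators drew attention to a pair of members, both lower in Suntag than in VP64 by edgeR's quasi-likelihood test. The log2 change against the control differed by -0.56 for the member ranked 36, of 3323 nt, and by -0.57 for the member ranked 76, of 1752 nt. Both calls ended without either VP64 library and without Suntag replicate 2. Groups held 2 libraries, too few to look for a library that stands apart within a group.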

How the results depend on the processing

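The number of clusters that met the rule was 182 with TMM factors, 169 with RLE factors, 53 in deposited TPM, 13 with a factor of 1.3, 605 with a factor of 1.0 and 55 with a mean of 20 CPM or more. With 1 library left out it ran from 98 to 348, the highest without SAM replicate 2. Leaving out a library removes a condition of the rule, so this number could hardly fall. The median log2 level of members in SAM was -0.62 with TMM and RLE factors and -0.51 in TPM, and -0.57 to -0.53 with 1 library left out. Members called among the other groups were few, and the counts moved, as did the shares of all clusters. With the compared groups alone they were 1 for VP64, 5 for VPR and 0 for Suntag against the control. Of all clusters, 4.66%, 8.9% and 0.181% were then called. There was 1 for VPR against VP64, with 0.295% of all, and 1 for VPR against Suntag, with 0.106%. With no filter they were 1, 5 and 6 against the control, where 2.67%, 6.95% and 2.96% of all clusters were called. There were 4 for Suntag against VP64, with 2.65% of all, and 3 for VPR against Suntag, with 2.01%. DESeq2 called 1 for VPR against the control, with 1.66% of all clusters, and 3 for VPR against Suntag, with 0.182%. With the length trend removed VPR called 0 against the control, where 0.566% of all clusters were called and 6.6% in the main fit. The replicate block, whose numbers do not pair the libraries, left 1 for Suntag against the control, where 0.816% of all clusters were called. It moved no other count by over 1.5 times. With 1 library left out, every count moved in at least 1 fit except that of VPR against VP64. The shares of all clusters moved too, and 1 group then held 1 library. Members called lower in SAM numbered 33 against the control, 38 against VP64 and 36 against VPR with DESeq2. Of all clusters, 0.948%, 0.989% and 1.27% were called there in either direction. Against Suntag they numbered 13 with the compared groups alone and 62 with no filter, with 0.461% and 4.29% of all in either direction. Those lower than all 4 groups numbered 12 with the compared groups alone, and the matching share is not given. With 1 library left out the ranges were 10 to 63 against the control, 8 to 67 against VP64, 5 to 67 against VPR, 1 to 41 against Suntag and 1 to 33 for all 4. The cause was not tested. In no alternative did the log2 change of a described call reverse, and counting the 4 equal members once, chosen after seeing the data, changed no count of calls. Low members rest on few counts, down to 26 summed over SAM.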
